A study of Homo sapiens with 18 samples.

Results

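The 9 genes described here, HLA-B, HLA-C, HLA-E, B2M, TAP1, TAP2, TAPBP, PSMB8 and PSMB9, encode parts of the MHC class I antigen presentation pathway and were chosen by name from the 21411 genes of the deposited table. All 9 were followed by RNA-seq in MDA-MB-231, an established human TNBC cell line grown in 3D Matrigel, over 18 libraries with 3 biological replicates in each of 6 conditions. Every culture was seeded with 50000 cells in Matrigel at 2 mg/ml and collected after 7 days. Jag1WT cells are parental, and Jag1KO cells are pooled single-cell clones with Cas9-edited JAG1, the gene of a Notch ligand. Jag1KO+rescue cells are Jag1KO cells with a plasmid carrying Jagged1 cDNA, Jag1KO+ctrl cells are Jag1KO cells with the empty plasmid, and both were kept under G418. siCtrl cells are Jag1WT cells given a nontargeting siRNA, and siJag1 cells are Jag1WT cells given a cocktail of Jagged1 siRNAs. The question asked of these genes was whether their transcript levels differed between cells with more and with less JAG1.

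Class I molecules show peptides from inside the cell to CD8 T cells and NK cells. A heavy chain, encoded by an HLA gene, pairs with the light chain β2-microglobulin (B2M) in the endoplasmic reticulum. Peptides are cut by the proteasome, whose inducible subunits include PSMB8 and PSMB9, are carried across the membrane by the transporter TAP1-TAP2, and are loaded with the help of tapasin (TAPBP). Interferons raise most of these genes through activators such as IRF1 and NLRC5.

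The total of reads counted on genes was between 10330581 and 18327890 per library. JAG1 itself was higher in each library of Jag1WT than in any of Jag1KO, with a log2 fold change of 1.71 (standard error 0.219, edgeR adjusted p = 0.0162). The same separation was seen for JAG1 with the rescue plasmid (log2 fold change 2.22, adjusted p = 0.0229, including reads of the plasmid's cDNA) and with the siRNA (log2 fold change 1.68, adjusted p = 0.111). All 5 genes chosen as present in this line (VIM, CD44, EGFR, AXL and CAV1) were above 1 CPM (counts divided by library size and scaled with TMM) in every library. Of 5 genes chosen as low in it, ESR1 stayed at or below 0.136 CPM, CDH1 reached 1.16 CPM and PGR 1.77 CPM. The other 2, EPCAM (5.18 to 8.99 CPM) and GATA3 (5.25 to 11.5 CPM), were above 1 CPM in every library. Of 7 leukocyte markers, which could bring class I transcripts of their own, 4 were below 1 CPM in every library, among them PTPRC, CD3E and ITGAM. CD74 and CD68 were at 67.4 to 438 CPM and 88.9 to 209 CPM, and CD14 was at 1.23 to 4.99 CPM. The summed level of the 7 genes was in Jag1WT 319 to 461 CPM and in Jag1KO 242 to 503 CPM. It was 163 to 406 CPM in Jag1KO+rescue, 353 to 523 CPM in Jag1KO+ctrl, 341 to 538 CPM in siCtrl and 382 to 594 CPM in siJag1. Of 6 fibroblast markers, 4 were below 1 CPM in every library, while COL1A1 was at 2.66 to 10 CPM and PDGFRB at 0.13 to 1.35 CPM.

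Of the 9 genes, 8 lie on chromosome 6 and B2M on chromosome 15, and all positions below are gene spans of RefSeq on GRCh38.p14, the build (hg38) the authors mapped to. HLA-E (Entrez gene 3133) lies at 30489509 to 30494194, HLA-C (3107) at 31268749 to 31272092 and HLA-B (3106) at 31353875 to 31357179. Further along the chromosome, TAP2 (6891) lies at 32821831 to 32838739, PSMB8 (5696) at 32840717 to 32844679, TAP1 (6890) at 32845209 to 32853704, PSMB9 (5698) at 32854192 to 32859851 and TAPBP (6892) at 33299694 to 33314078. B2M (567) spans 44711517 to 44718145 of chromosome 15. TAP1 and PSMB9 are transcribed away from each other from start sites with 487 bases between them. HLA-B, HLA-C and HLA-E are close in sequence, and only uniquely mapped reads were counted, so that their levels may miss reads that match several HLA genes or that come from alleles unlike the reference. Whether the counting used the strand is not given in the sources used here, so that reads of PSMB8, TAP1 and PSMB9 cannot be told apart from those of antisense transcripts.

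Promoter sequences hold short motifs that some of these genes have in common. RefSeq windows from 250 bases before to 50 bases from the start site on were found for 8 of the 9 genes, all but HLA-E. They were searched on both strands for the IRF core AANNGAAA, which can match in overlapping places, and for the NF-κB forms GGACTTTCC and GGGATTCCC. The stretches below, upstream of the start site, are those of the members whose levels are compared most closely below, each on the strand of its gene, and capitals mark the IRF core and NF-κB matches.
HLA-B: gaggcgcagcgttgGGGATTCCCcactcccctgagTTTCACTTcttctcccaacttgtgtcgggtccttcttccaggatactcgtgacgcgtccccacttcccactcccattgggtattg
HLA-C: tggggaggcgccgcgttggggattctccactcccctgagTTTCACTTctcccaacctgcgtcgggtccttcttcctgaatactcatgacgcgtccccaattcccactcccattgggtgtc
TAP1: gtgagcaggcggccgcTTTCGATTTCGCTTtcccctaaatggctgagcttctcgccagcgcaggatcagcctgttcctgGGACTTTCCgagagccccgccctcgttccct
B2M: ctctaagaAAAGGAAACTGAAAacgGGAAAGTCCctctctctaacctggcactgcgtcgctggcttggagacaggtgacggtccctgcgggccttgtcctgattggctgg
The HLA-B stretch is chr6:31357250-31357369 (minus strand) and that of HLA-C is chr6:31272163-31272282 (minus strand), both from 190 to 71 bases before the start site. The TAP1 stretch is chr6:32853745-32853854 (minus strand) and the B2M stretch is chr15:44711367-44711476 (plus strand), both from 150 to 41 bases before it.

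The IRF core was found in 6 of the 8 windows (HLA-B, HLA-C, B2M, TAP1, TAP2 and TAPBP), and in 22.8% of the 35116 RefSeq windows of this length. One of the NF-κB forms was in 3 of the 8 (HLA-B, B2M and TAP1) against 0.755% of all windows. TGGGAA, the core bound by the Notch effector RBPJ, was matched on the minus strand in HLA-B, HLA-C and PSMB9 and is common, with 24% of all windows holding it. These matches are descriptions of letters, and their relation to the levels in the cultures was not tested.

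Per length, the heavy and light chains were the most abundant of the 9 transcripts. In Jag1WT, HLA-B was at 422 ± 17.6 RPKM (the deposited value normalized for gene length, mean ± SD, n = 3) and B2M at 402 ± 4.70 RPKM. HLA-E followed at 224 ± 17.9 RPKM and HLA-C at 216 ± 10.8 RPKM. TAPBP had 73.3 ± 5.19 RPKM, PSMB8 23.8 ± 4.47, TAP1 22.8 ± 2.73, TAP2 16.3 ± 1.70 and PSMB9 9.15 ± 0.585 RPKM. All 9 genes were above the filter of 1 CPM and were tested in every comparison.

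**Figure D1:**
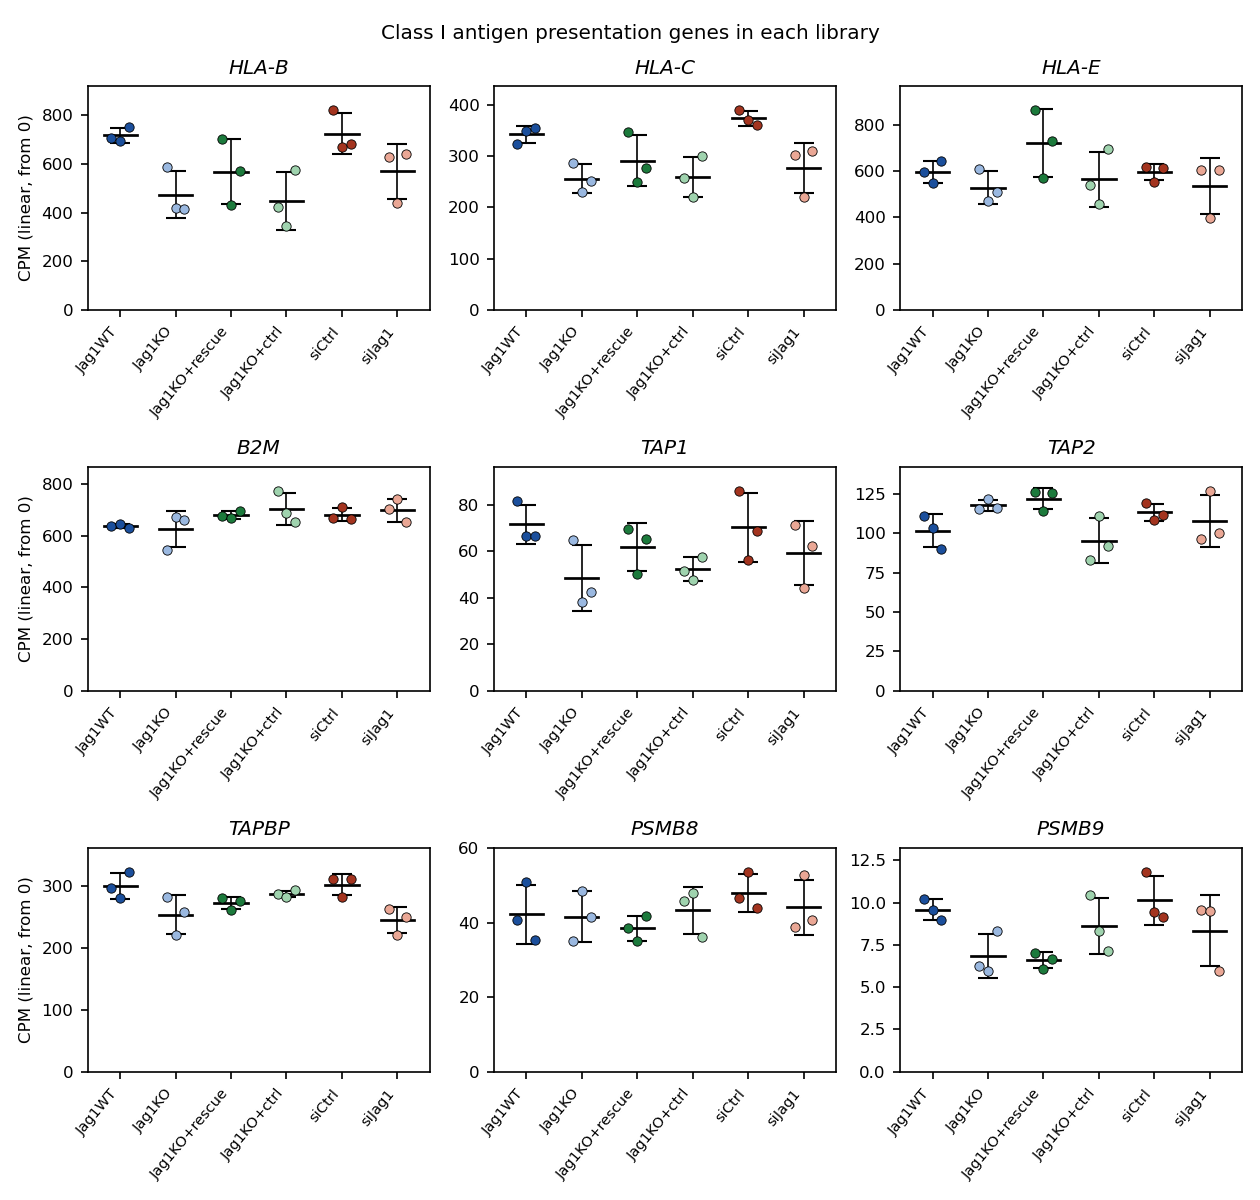
Level of each of the 9 genes (y axis, CPM on a linear scale from 0) in the 6 conditions (x axis), with 1 point per library, the mean as a line and the SD as a bar (n = 3). HLA-B and HLA-C lay higher in the 3 Jag1WT libraries than in the 3 Jag1KO libraries and higher in siCtrl than in siJag1, while B2M stayed between 547 and 774 CPM in all 18 libraries.

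HLA-B, a classical heavy chain, was higher in Jag1WT than in Jag1KO without passing the test. It had 708, 693 and 750 CPM in Jag1WT and 586, 420 and 414 CPM in Jag1KO, a log2 fold change of 0.60 (standard error 0.149, 95% interval 0.25 to 0.94, edgeR adjusted p = 0.204). The lowest Jag1WT library was above the highest Jag1KO library, and Jag1KO replicate 1 stood nearer to Jag1WT than the other 2 Jag1KO libraries. The rescue plasmid gave 702, 433 and 570 CPM against 421, 346 and 576 CPM with the empty plasmid. Those groups overlapped (log2 fold change 0.33, standard error 0.244, 95% interval -0.23 to 0.90, adjusted p = 0.357). siCtrl had 822, 671 and 681 CPM and siJag1 627, 437 and 641 CPM. These did not overlap, but the log2 fold change of 0.36 (standard error 0.169, 95% interval -0.03 to 0.75) had an adjusted p of 0.970.

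HLA-C, the second classical heavy chain among the members, had the same order. In Jag1WT it was at 323, 349 and 356 CPM and in Jag1KO at 286, 230 and 252 CPM, with no overlap (log2 fold change 0.42, standard error 0.113, 95% interval 0.16 to 0.68, edgeR adjusted p = 0.260). With siCtrl it was at 390, 371 and 360 CPM and with siJag1 at 301, 220 and 309 CPM, again with no overlap (log2 fold change 0.44, standard error 0.139, 95% interval 0.12 to 0.76, adjusted p = 0.970). The rescue (347, 249 and 277 CPM) and its control (258, 220 and 300 CPM) overlapped, with a log2 fold change of 0.16 (95% interval -0.26 to 0.57).

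HLA-E, a nonclassical heavy chain read by NK cells, was spread more widely than it differed between conditions. Jag1WT had 595, 548 and 644 CPM and Jag1KO 609, 470 and 508 CPM, while levels were 619, 556 and 615 CPM in siCtrl and 607, 398 and 605 CPM in siJag1. The highest mean was that of Jag1KO+rescue, with 866, 572 and 732 CPM, and Jag1KO+ctrl had 542, 459 and 695 CPM. All 3 log2 fold changes were between 0.16 and 0.35, and in each comparison the groups overlapped. The siRNA value of 0.16 turned to -0.01 without siJag1 replicate 2.

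B2M, the light chain needed by every heavy chain, was the steadiest of the 9 genes, with a highest condition mean 1.13 times the lowest. In Jag1WT it was at 638, 647 and 632 CPM and in Jag1KO at 547, 672 and 660 CPM, and the log2 fold change was 0.02 (95% interval -0.25 to 0.29, which reaches 1.23-fold). In the rescue it was -0.06 (95% interval -0.38 to 0.27) and for the siRNA -0.03 (95% interval -0.27 to 0.21).

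The ratio of HLA-B to B2M within a library does not depend on the scaling between libraries. It was between 1.07 and 1.19 in Jag1WT and between 0.626 and 1.07 in Jag1KO, so that Jag1KO replicate 1 reached the lowest Jag1WT library. In siCtrl the ratio was 0.944 to 1.23 and in siJag1 0.591 to 0.984, which overlapped. With the rescue plasmid it was 0.647 to 1.03, and with the empty plasmid 0.502 to 0.881. The ratio of HLA-B to HLA-C was 1.99 to 2.19 in Jag1WT and 1.64 to 2.05 in Jag1KO, also with an overlap. That of HLA-C to B2M overlapped in the knockout comparison (0.507 to 0.563 in Jag1WT, 0.342 to 0.523 in Jag1KO). For the siRNA it did not (0.522 to 0.585 in siCtrl, 0.297 to 0.474 in siJag1). TAP1 to TAP2 did not overlap in the knockout comparison (0.645 to 0.737 in Jag1WT, 0.312 to 0.562 in Jag1KO). It did for the siRNA (0.517 to 0.72 in siCtrl, 0.349 to 0.741 in siJag1), and both ratios overlapped between the plasmids.

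TAP1, the first subunit of the peptide transporter, had 81.5, 66.7 and 66.6 CPM in Jag1WT and 64.8, 38.0 and 42.6 CPM in Jag1KO. The groups did not overlap, with a log2 fold change of 0.56 (standard error 0.198, 95% interval 0.10 to 1.01, edgeR adjusted p = 0.435). In the rescue (69.8, 50.4 and 65.5 CPM against 51.7, 47.6 and 57.6 CPM) and for the siRNA (86.0, 56.2 and 68.7 CPM against 71.3, 44.3 and 62.1 CPM) the groups overlapped. TAP2, its partner in the transporter, took another course. It was lower in Jag1WT (111, 103 and 90.3 CPM) than in Jag1KO (115, 122 and 116 CPM), with a log2 fold change of -0.22 (95% interval -0.46 to 0.02). With the rescue plasmid it was higher, at 127, 114 and 125 CPM against 83.0, 111 and 92.2 CPM (log2 fold change 0.35, 95% interval 0.01 to 0.68, adjusted p = 0.155). The siRNA groups of TAP2 overlapped, at 120, 109 and 111 CPM in siCtrl and 96.2, 127 and 100 CPM in siJag1.

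TAPBP, the loading chaperone tapasin, was at 296, 280 and 322 CPM in Jag1WT and 281, 220 and 258 CPM in Jag1KO, which overlapped. With siCtrl it was at 311, 282 and 311 CPM and with siJag1 at 262, 221 and 249 CPM. Those groups did not overlap (log2 fold change 0.31, standard error 0.103, 95% interval 0.07 to 0.55, edgeR adjusted p = 0.970). In Jag1KO+rescue it was at 279, 261 and 275 CPM, below the 287, 282 and 292 CPM of Jag1KO+ctrl, with a log2 fold change of -0.09 (95% interval -0.37 to 0.19).

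PSMB8 and PSMB9 encode inducible catalytic subunits that replace PSMB5 and PSMB6 in the proteasome. PSMB8 overlapped in all 3 comparisons, with levels between 35.0 and 53.6 CPM over the 18 libraries and log2 fold changes of 0.02, -0.18 and 0.13. PSMB9, the least abundant member, was at 10.2, 9.5 and 9.0 CPM in Jag1WT and 6.3, 5.9 and 8.3 CPM in Jag1KO, without overlap (log2 fold change 0.49, standard error 0.195, 95% interval 0.04 to 0.93, edgeR adjusted p = 0.511). In the rescue the order was turned, with 7.0, 6.1 and 6.7 CPM against 10.4, 8.3 and 7.2 CPM (log2 fold change -0.40, 95% interval -0.89 to 0.10), and for the siRNA it overlapped. The ratio of PSMB9 to PSMB6 was 0.0912 to 0.108 in Jag1WT and 0.0504 to 0.0767 in Jag1KO, and 0.0511 to 0.0605 in Jag1KO+rescue against 0.0786 to 0.106 in Jag1KO+ctrl.

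**Figure D2:**
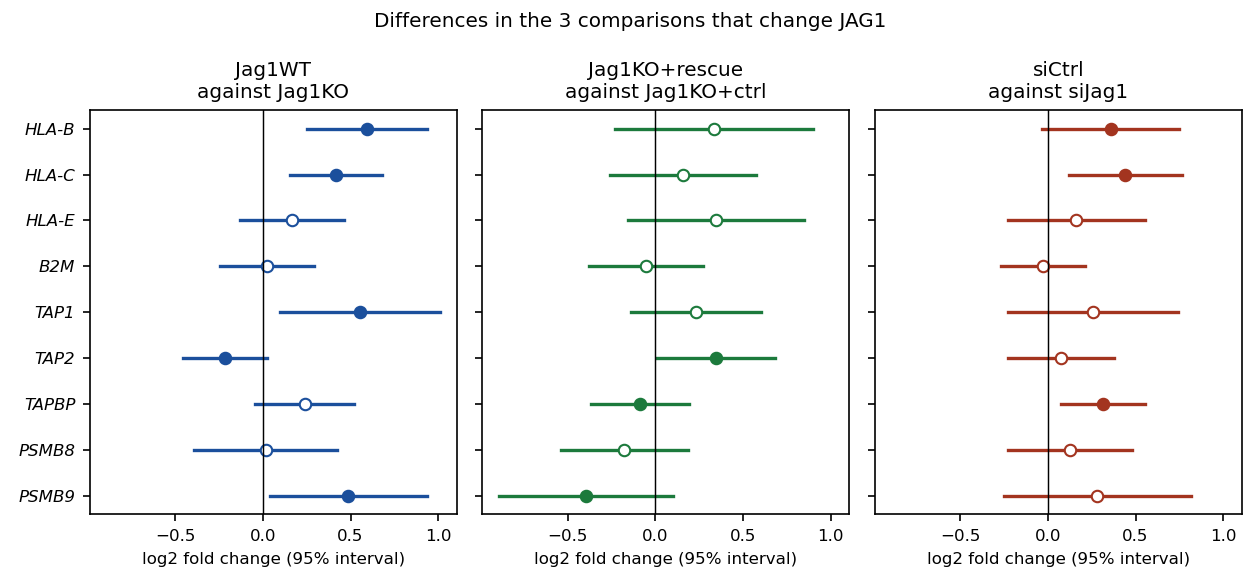
Log2 fold change (x axis) of the 9 genes (y axis) in each of the 3 comparisons that change JAG1, with 95% intervals from edgeR. Filled points mark groups that did not overlap. HLA-B, HLA-C, HLA-E and TAP1 lie right of 0 in all 3 panels, PSMB9 and TAP2 change sides, and no gene passed the adjusted test.

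None of the 9 genes passed an FDR of 0.05 in edgeR's quasi-likelihood test in any of the 3 comparisons. In Jag1WT against Jag1KO, 0 of 9 passed, where 0.714% of 12879 genes did, and 4 had an unadjusted p below 0.05, as did 8.81% of all genes. Limma called 0 of the 9 and DESeq2 called 1, HLA-B (DESeq2 adjusted p = 0.0174), among 273 of all genes. Of the 9, 4 were higher without overlap (HLA-B, HLA-C, TAP1 and PSMB9), as were 7.24% of the genes tested, and 1 was lower (TAP2), as were 6.58%. The median log2 fold change of the 9 was 0.24, and that of all genes tested was -0.01. Leaving out 1 library changed these calls. Without Jag1KO replicate 1, HLA-B (edgeR adjusted p = 0.00424), HLA-C (0.0236) and TAP1 (0.00686) passed, as did 1233 genes in place of 92.

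In Jag1KO+rescue against Jag1KO+ctrl, 0 of 9 passed (edgeR), where 0.00778% of 12850 genes did, and 1 had an unadjusted p below 0.05, as did 30.8% of all genes. Limma and DESeq2 called 0 of the 9, and DESeq2 called 1754 of all genes. Without overlap, 1 of the 9 was higher (TAP2) and 2 were lower (TAPBP and PSMB9), where 16.5% and 16% of all genes tested were. The median log2 fold change of the 9 was 0.16. In siCtrl against siJag1, 0 of 9 passed (edgeR), where 0.0157% of 12774 genes did, and 2 had an unadjusted p below 0.05, as did 3.83% of all genes, with 0 of the 9 called by limma and DESeq2. A fit with replicate number as block called 4 genes in place of 2 and still 0 of the 9. There, 3 of the 9 were higher without overlap (HLA-B, HLA-C and TAPBP) and 0 were lower, where 5.15% and 5.32% of all genes tested were. The median log2 fold change of the 9 was 0.26.

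The mean of the 3 comparisons, which share no library, was estimated in a single edgeR fit of the 18 libraries that was added after the data had been seen. Again 0 of 9 genes passed, against 1.49% of 12757 genes. The nearest were HLA-C, with a mean log2 fold change of 0.33 (standard error 0.0836, edgeR adjusted p = 0.0574), and HLA-B, with 0.42 (standard error 0.118, adjusted p = 0.0725). TAP1 followed with 0.34 (standard error 0.119, adjusted p = 0.114). HLA-B, HLA-C and TAP1 passed without Jag1KO replicate 1, when 5.52% of all genes tested did, and without Jag1KO+ctrl replicate 3, when 23.8% did. Of the 9, HLA-C alone passed without Jag1KO+rescue replicate 2 (1.69% of all genes) or siJag1 replicate 3 (1.73%). Limma called 0 of the 9. With replicate number as a block, 5 of the 9 passed (HLA-B, HLA-C, HLA-E, TAP1 and TAPBP, with edgeR adjusted p between 0.0163 and 0.0493), as did 15% of all genes tested in that fit. Deviations of libraries with the same number correlated over 0.1 in all 3 cases for siCtrl and siJag1, and not for the other 2 comparisons. Whether the numbers pair the libraries was not tested.

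Whether the effects themselves differed between comparisons was tested with interaction contrasts. None of the 9 passed in the knockout against the siRNA, where 0.11% of the genes did, in the knockout against the rescue (0.547%) or in the siRNA against the rescue (0.094%). The differences nearest to the threshold were between knockout and rescue, for PSMB9 (0.91 on the log2 scale, standard error 0.272, edgeR adjusted p = 0.0995) and TAP2 (-0.54, standard error 0.172, adjusted p = 0.111). Without Jag1KO+ctrl replicate 3, 1 of the 9 passed in that contrast, PSMB9 (1.03 on the log2 scale, adjusted p = 0.0196), as did 19.9% of all genes tested.

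The empty plasmid and the nontargeting siRNA were compared with their parental cells as controls, which share libraries with the comparisons above. In Jag1KO+ctrl against Jag1KO, 0 of 9 passed in edgeR, limma and DESeq2, 0 had an unadjusted p below 0.05, and 0% of 12956 genes passed in edgeR. The groups did not overlap for 2 of the 9, TAPBP (higher) and TAP2 (lower), as for 10.1% of the genes tested. In siCtrl against Jag1WT, 0 of 9 passed in all 3 tools, 0 had an unadjusted p below 0.05, and 0% of 12797 genes passed in edgeR. HLA-C and B2M were higher without overlap there, as 6.3% of the genes were in either direction, with log2 fold changes of 0.12 and 0.08. A fit with replicate number as block called 9 genes, 0 of them among the 9 described here.

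Ordered by their means over the 6 conditions, most neighbours overlapped. For HLA-B the order was siCtrl (725 ± 84.4 CPM, mean ± SD, n = 3), Jag1WT (717 ± 29.8), siJag1 (569 ± 114), Jag1KO+rescue (568 ± 135), Jag1KO (473 ± 97.3) and Jag1KO+ctrl (447 ± 117). Only Jag1WT and siJag1 among these neighbours did not overlap. HLA-C and TAP1 had the same pair of conditions at the top and the same pair at the bottom as HLA-B. For TAP2, the highest mean was that of Jag1KO+rescue (122 ± 6.75 CPM) and the lowest that of Jag1KO+ctrl (95.4 ± 14.3 CPM). Over the 9 genes, 4 pairs of neighbours did not overlap, 1 each for HLA-B, HLA-C, B2M and TAPBP.

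Several members differed between the libraries of a condition along with the level of proliferation genes. In ranges set after the values were seen, the mean log2(CPM + 1) of 30 cell cycle genes was between 4.23 and 4.70 in 10 libraries, between 5.18 and 5.48 in 3 and between 5.93 and 6.76 in 5. HLA-B had 570 to 822 CPM in the 10 libraries with the lowest cell cycle means and 346 to 437 CPM in the 5 with the highest. The same 2 ranges were 277 to 390 CPM and 220 to 258 CPM for HLA-C, 595 to 866 CPM and 398 to 542 CPM for HLA-E, and 57.6 to 86.0 CPM and 38.0 to 51.7 CPM for TAP1. These 4 genes were lower in the 5 libraries without overlap, as were 8.98% of 12757 genes, and 0 of the 9 were higher without overlap, as were 9.05%. The medians of HLA-B and HLA-C were not ordered by range. They were 671 CPM for HLA-B and 349 CPM for HLA-C in the 3 libraries between, against 661 and 316 CPM in the 10. In these 3 libraries HLA-B was at 433 CPM (Jag1KO+rescue replicate 2), 671 CPM (siCtrl replicate 2) and 693 CPM (Jag1WT replicate 2). HLA-C was at 249 to 371 CPM in them.

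The other members did not show this separation. B2M was at 547 to 703 CPM in the 10 libraries and 660 to 774 CPM in the 5, PSMB8 at 35.0 to 46.5 CPM and 41.5 to 52.7 CPM, and TAP2, TAPBP and PSMB9 overlapped as well. In each of the 6 conditions, the library with the highest cell cycle mean had the lowest HLA-B level. HLA-E and TAPBP were lowest in that library in 5 of 6 conditions, TAP1 in 4 and HLA-C in 3, while PSMB8 was highest in it in 4 and B2M in 3. Jag1KO replicate 1 had a cell cycle mean of 4.24 and the other Jag1KO libraries 5.93 and 6.19.

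**Figure D3:**
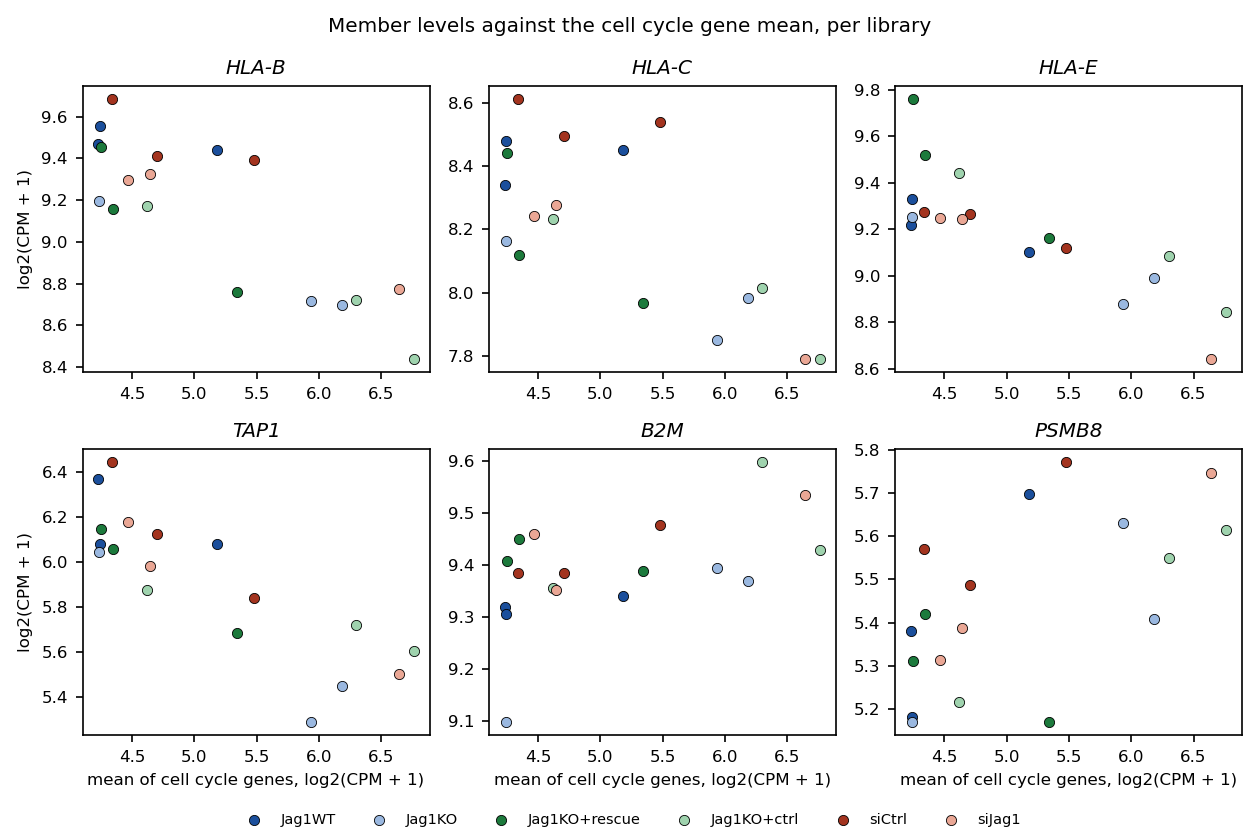
Level of 6 members (y axis, log2(CPM + 1)) against the mean of 30 cell cycle genes (x axis, log2(CPM + 1)) in the 18 libraries, 1 point per library and 1 color per condition. The 5 libraries with means of 5.93 to 6.76, from Jag1KO, Jag1KO+ctrl and siJag1, hold low values of HLA-B, HLA-C, HLA-E and TAP1, but not of B2M or PSMB8.

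The log2 fold changes of the cell cycle genes were negative in all 3 comparisons, that is, lower in the group with more JAG1. This was so for all 30 genes in each of them, with median log2 fold changes of -1.23, -1.39 and -0.69. Only 1 of them passed the edgeR test in these comparisons, MCM2 in Jag1WT against Jag1KO (log2 fold change -0.78, adjusted p = 0.0442), and MCM2 is a helicase subunit of DNA replication. The 5 libraries with the highest means are all of conditions with less JAG1, so that JAG1 and this proliferation level cannot be fully told apart, and the part of the latter in the differences of HLA-B, HLA-C and TAP1 was not tested. In bulk RNA, fewer cells with a transcript and less of it per cell cannot be told apart either.

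**Figure D4:**
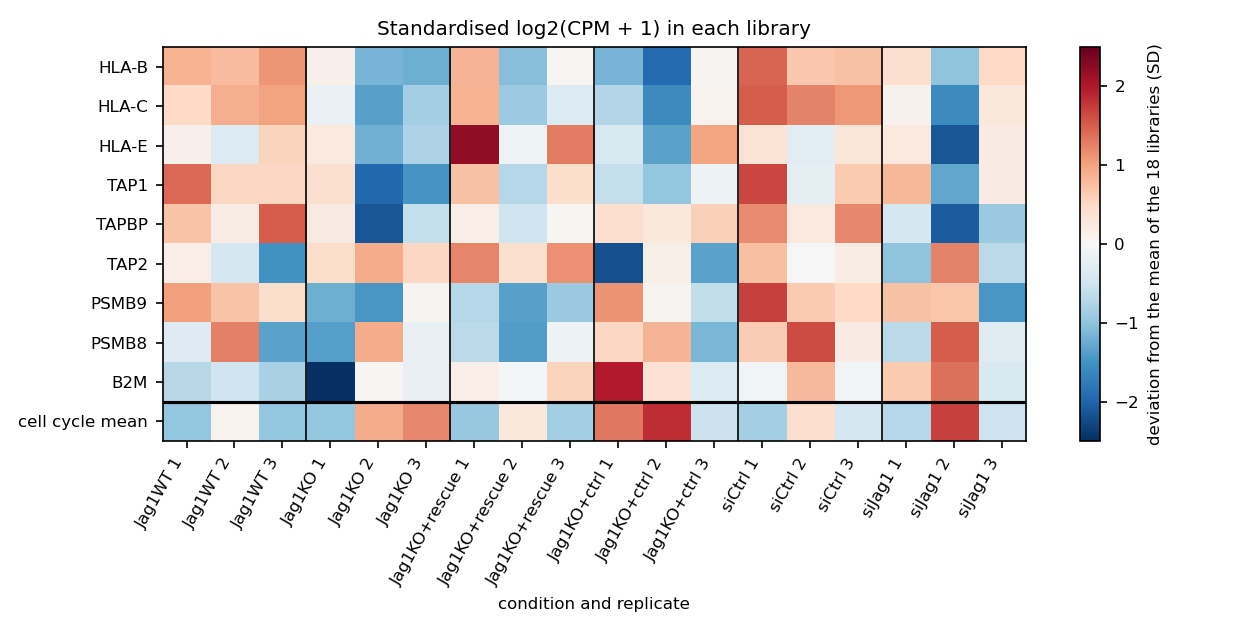
Deviation of each of the 9 genes and of the cell cycle mean (rows) from its mean over the 18 libraries (columns), in SD of log2(CPM + 1), from blue (below) to red (above). HLA-B, HLA-C, HLA-E, TAP1 and TAPBP are blue in Jag1KO replicate 2 and siJag1 replicate 2, where the cell cycle mean is red. The cell cycle mean is also red in Jag1KO+ctrl replicates 1 and 2, where TAPBP is not blue (287 and 282 CPM).

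The members did not vary as 1 block. The levels of HLA-B fell into a range of 346 to 437 CPM in 6 libraries and 570 to 822 CPM in 12, so that correlations of log2(CPM + 1) with it were taken within each of these ranges, which were set after the values were seen. In the 12 libraries, HLA-C followed HLA-B with r = 0.882 and rho = 0.79 (permutation p = 0.00015 and 0.0032, adjusted over 16 relations 0.0024 and 0.0512), and r was 0.792 without the 2 libraries farthest from the median of HLA-B. For TAP1 r was 0.627 and rho 0.615 (permutation p = 0.0289 and 0.0374, adjusted 0.154 and 0.249). PSMB9 had r = 0.724 and rho = 0.573 (permutation p = 0.00824 and 0.0551, adjusted 0.0659 and 0.249). For B2M r was 0.119 and rho -0.217 (permutation p = 0.715 and 0.5, adjusted 0.853 and 0.917). The r values were 0.546 for TAPBP, 0.338 for PSMB8, 0.0722 for TAP2 and -0.162 for HLA-E. Over all 18 libraries r with HLA-B was 0.289 for PSMB9 and 0.639 for HLA-E, so that the values above depend on the split. Within conditions, r with HLA-B was 0.954 for HLA-E, 0.938 for HLA-C, 0.819 for TAP1 and 0.642 for TAPBP. Within conditions it was negative for PSMB9 (-0.2), TAP2 (-0.341), PSMB8 (-0.567) and B2M (-0.569). In the 6 libraries no relation had an adjusted exact permutation p under 0.853. Libraries of different conditions were permuted together, so that these p values do not set differences between conditions apart.

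The genes whose pattern was most like the mean of the 9 standardized members over the 18 libraries were CREB3L1 (Pearson r = 0.89), NXN (0.881), TIMP1 (0.864), BID (0.854) and AFAP1L2 (0.832), out of 12748 searched. CREB3L1 is a membrane-bound transcription factor of the endoplasmic reticulum, and TIMP1 is an inhibitor of matrix metalloproteinases. These r values are a measure of likeness, and the libraries share the conditions and the cell cycle levels above.

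The rest of the class I pathway gave no call. Of 20 other pathway genes, 0 passed the edgeR test in any of the 3 comparisons, and 1, 6 and 3 had an unadjusted p below 0.05, with 0 of them lower in the knockout and siRNA comparisons and 2 in the rescue. Beside these, 8.81%, 30.8% and 3.83% of all genes had such a p. Their median log2 fold changes were 0.14, 0.11 and 0.14. The third inducible proteasome subunit, PSMB10, had log2 fold changes of 0.34, 0.02 and 0.64, and its siRNA groups did not overlap (18.3 ± 1.66 CPM in Jag1WT, 14.4 ± 2.11 in Jag1KO, 20.7 ± 4.44 in siCtrl and 13.4 ± 2.85 in siJag1, mean ± SD, n = 3). Of the 14 standard core subunits of the proteasome, 0 passed, with medians of -0.09, 0.16 and -0.08.

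None of the partners in peptide loading and trimming named here passed the edgeR test. The chaperone CANX had log2 fold changes of 0.15, 0.37 and 0.02, CALR of -0.10, 0.05 and -0.01 and the disulfide isomerase PDIA3 of 0.11, 0.45 and 0.10. ERAP1, which trims peptides in the endoplasmic reticulum, had 0.38, 0.71 and 0.15, and its relative ERAP2 0.16, -0.71 and 0.01. TAPBPL, a tapasin relative that edits peptides, had 0.39, -0.40 and 0.42.

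No regulator of class I transcription passed the test. NLRC5, the main activator of class I promoters, was at 14.3 ± 1.02 CPM in Jag1WT and 12.1 ± 2.56 CPM in Jag1KO (mean ± SD, n = 3). With the rescue plasmid NLRC5 was at 8.82 ± 0.461 CPM against 15.7 ± 5.19 CPM with the empty one, a log2 fold change of -0.84 (standard error 0.262, edgeR adjusted p = 0.111) in groups that did not overlap. IRF1, a factor that binds the IRF core, had log2 fold changes of 0.16, 0.84 and 0.36. With the rescue plasmid IRF1 was at 98.6 ± 7.89 CPM against 54.8 ± 20.4 CPM with the empty one. Those groups did not overlap either (standard error 0.249, edgeR adjusted p = 0.108). Of 29 regulators of class I transcription, 0 passed in any comparison, with medians of -0.03, 0.20 and 0.06.

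Interferon-stimulated genes and MHC class II genes served as a wider view of the same responses. Of the interferon-stimulated genes, 37, 36 and 39 could be tested and 0 passed, with medians of 0.04, -0.40 and 0.06. In the rescue, 29 of the 36 had lower means, 12 of these without overlap, where 16% of all genes tested were lower without overlap. Of the class II genes, 12, 11 and 13 were tested, 0 passed, and the medians were 0.21, 0.04 and -0.14. The medians of all genes tested were -0.01, -0.002 and -0.01.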

How the data were processed

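The authors prepared stranded mRNA libraries, aligned them to hg38 and counted uniquely mapped reads per gene. The submitters' processing notes name featureCounts, edgeR 3.28.0, R 3.6.1 and MultiQC 1.5, and the aligner is not given in the sources used here. The deposited counts are whole and not normalized. The deposited CPM, a signal scaled by the authors with TMM, were used for levels, and the deposited RPKM only between genes in Jag1WT. Of its columns, 3 fit no sample label and were left aside. Rows without a symbol (292, with up to 0.0442% of a library's counts) were left out.

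Counts of the 6 libraries of each comparison were tested with edgeR 4.0.16 (TMM, quasi-likelihood, two-sided) on genes above 1 CPM in at least 3 libraries, and interactions on 12 libraries (at least 6). Benjamini-Hochberg adjustment ran over all genes tested, at 0.05. Alternatives were limma 3.58.1 on log2(CPM + 1) and log2(CPM + 0.1), DESeq2 1.42.0, other scaling, filters, all 18 libraries, the replicate block and leaving out each library. Correlations used 100000 permutations (exact with 6 libraries), with libraries of different conditions permuted together. The scripts were tested on simulated data. With 3 libraries against 3, an exact permutation test cannot go below 0.1. The p values of edgeR, limma and DESeq2 measure the spread between the libraries labelled biological replicates. The 9 members, the lists and the rule for named genes (direct partners, genes past the threshold, the 5 most alike) were chosen with earlier results of these data known. Single values of some genes under this rule are not reported here.

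Deviations of libraries with the same replicate number were correlated within each comparison. For siCtrl and siJag1 (0.543, 0.522 and 0.264) and for siCtrl and Jag1WT (0.595, 0.713 and 0.21) all 3 correlations were over 0.1. In the other comparisons they were not all over 0.1. Whether the numbers pair the libraries was not tested.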

Additional observations from a re-analysis of the deposited data

How the results depend on the processing

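No member passed the test in the 5 comparisons under other size factors, other filters, limma with either pseudocount or all 18 libraries in one fit. In Jag1WT against Jag1KO, DESeq2 called 1 of the 9 (HLA-B). The replicate block called 2 there, HLA-B (edgeR adjusted p = 0.0428) and TAP1 (0.0371), although the check of the deviations (0.632, 0.667 and -0.0137) did not show that its numbers pair the libraries. Nor did it in the rescue (-0.207, 0.345 and 0.242) or in Jag1KO+ctrl against Jag1KO (-0.356, 0.279 and -0.61), where the block called 0 of the 9. Where the numbers did pair them, the block called 0 of the 9. Leaving out a library gave 0 to 3 members in Jag1WT against Jag1KO, 0 to 1 in its contrast with the rescue, and 0 to 3 in the mean of the 3 comparisons, for which the block called 5. The cause was not tested.

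The counts over all genes moved more. The 92 genes of Jag1WT against Jag1KO became 157 without the filter, 59 with more than 1 CPM in all libraries, 273 with DESeq2, 155 with all 18 libraries, 338 with the replicate block and 8 to 1233 without a library (1233 without Jag1KO replicate 1). The 1 gene of the rescue became 2 without the filter, 1754 with DESeq2, 2 with limma at either pseudocount, 3355 with all 18 libraries, 3 with the replicate block and 0 to 4299 without a library (4299 without Jag1KO+ctrl replicate 3). The 2 genes of siCtrl against siJag1 became 8 without the filter, 0 with the stricter filter, 27 with DESeq2, 0 with limma at either pseudocount, 7 with all 18 libraries, 4 with the replicate block and 0 to 4 without a library (4 without siJag1 replicate 2). In Jag1KO+ctrl against Jag1KO the 0 genes became 13 with DESeq2, 1 with all 18 libraries and 0 to 301 without a library (301 without Jag1KO+ctrl replicate 3), and in siCtrl against Jag1WT 9 with the replicate block.

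The direction turned only for members with a main log2 fold change from -0.10 (HLA-B in Jag1KO+ctrl against Jag1KO) to 0.16 (HLA-E in siCtrl against siJag1). None of them passed in that comparison under any alternative named here. Leaving out a library gave log2 fold changes between -0.14 and 0.14 for PSMB8 and between -0.071 and 0.076 for B2M in Jag1WT against Jag1KO, and between -0.10 and 0.0040 for B2M in the rescue. In siCtrl against siJag1 they were between -0.0064 and 0.22 for TAP2, between -0.0068 and 0.26 for HLA-E and between -0.077 and 0.025 for B2M. In Jag1KO+ctrl against Jag1KO they were between -0.11 and 0.11 for HLA-C (-0.0024 with the replicate block), between -0.32 and 0.088 for HLA-B, between -0.067 and 0.17 for PSMB8, between -0.046 and 0.36 for TAP1 and between -0.092 and 0.21 for HLA-E. In siCtrl against Jag1WT they were between -0.062 and 0.060 for HLA-E (0.0034 with limma at either pseudocount), between -0.093 and 0.057 for HLA-B, between -0.20 and 0.10 for TAP1, between -0.043 and 0.065 for TAPBP and between -0.053 and 0.14 for PSMB9. PSMB9 has the fewest counts of the 9.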
